A study of Mus musculus with 6 samples.

Results

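Chemokines are small secreted proteins that guide leukocytes, and their receptors are mostly G protein-coupled receptors on the leukocyte surface. In an injured liver, CCL2 and CCL7 call CCR2-bearing monocytes from the blood, CXCL1 and CXCL2 act on CXCR2 of neutrophils, and CXCL9, CXCL10 and CXCL11 act on CXCR3 of activated T cells and NK cells. Atypical receptors bind chemokines without G protein signaling and take them up. All gene names of this family that the name rule reaches were taken from the gene table of a liver RNA sequencing experiment: names that begin with Ccl, Cxcl, Ccr or Cxcr followed by a number, the Cx3c pair, Xcl1, Xcr1 and the Ackr genes. This gave 68 of 55491 rows, with 62 gene symbols, of which 46 rows were ligands and 22 were receptors.

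The 6 livers were from 3 mice of genotype Chrna2fl/fl, the littermate controls, and 3 of genotype Chrna2fl/fl;AlbCre. Chrna2 encodes a subunit of the nicotinic acetylcholine receptor. The albumin promoter drives Cre in hepatocytes, so that other liver cells keep the gene, and both genotypes carry the floxed alleles. All 6 mice received a high-fat diet (HFD, 60% of calories from fat) for 4 weeks from an age of 7 to 10 weeks, with injections of carbon tetrachloride, a hepatotoxin, 2 times per week at 0.5 µl per g body weight in the later weeks. The toxin is written CCl4, as is the unrelated chemokine gene Ccl4. Sex was not given for these mice.

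Levels are in FPKM, fragments scaled by transcript length and library depth, so that genes of different length can be compared. The fragment depth recovered from the steps of low values was 17.2 to 18.1 M in the controls and 9.07 to 9.36 M (M, 1e6 fragments) in the AlbCre livers, and 19251 to 19843 genes against 18623 to 18743 genes were above 0. Depth and genotype therefore cannot be told apart. Chrna2 was 1.24, 1.20 and 2.64 FPKM in the controls and 0.36, 0.03 and 0.32 FPKM in the AlbCre livers, and the Cre sequence was listed at 0 in each control and at 2.76 to 4.34 FPKM in the AlbCre livers. Hepatocyte markers summed to 66946 to 102666 FPKM in the controls and 78084 to 97587 FPKM in the AlbCre livers, so the tissue carried the transcripts of its label.

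A mean of at least 0.5 FPKM over the 6 livers was reached by 33 members, 24 ligand rows and 9 receptors. Another 10 ligands and 12 receptors lay below it and above 0, and 12 ligand rows and 1 receptor were listed at 0 in every liver. Ackr1 at a mean of 0.52 FPKM was the member just inside, and Cxcl13 at 0.48 FPKM the member just outside. In bulk liver, fewer cells of a type and less RNA per cell cannot be told apart.

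The summed FPKM of the receptors stood higher in the AlbCre livers, while no single receptor passed an adjusted p under 0.05 in limma. The summed receptor level was 12.1, 12.8 and 8.01 FPKM in the controls and 20.5, 25.4 and 19.8 FPKM in the AlbCre livers, with no overlap. Ccr2 weighs heavily in these sums, with means of 2.97 FPKM in the controls and 7.16 FPKM in the AlbCre livers. The sums were not compared with sums of other genes. All 9 receptors that reached the filter had a positive log2 fold change, beside 70.3% of all genes tested. That count depends on the filter: Ccr1 and Ackr1, with control means of 0.30 and 0.43 FPKM, reached it through the AlbCre livers. Without the filter, Ccr4 (-0.50), Cxcr1 (-0.45), Cxcr5 (-0.23) and Ccr10 (-0.002) were negative, and the other receptors above 0 were positive. The median of the 9 was 0.85, against 0.19 over all 13943 genes tested, and Ackr4 (0.02) and Ackr1 (0.15) lay below 0.19. In 2 of the 9 (22.2%), Ccr2 and Ccr1, every AlbCre liver lay above every control, beside 18.7% of all genes. At an unadjusted p under 0.05 in limma, 5 ligands were higher in the AlbCre livers. They were the macrophage chemokines Ccl6 and Ccl9, the monocyte ligand Ccl7, the CXCR3 ligand Cxcl9 and the CCR7 ligand Ccl19. The intervals of all other ligand rows included 0. Among these, the neutrophil ligands Cxcl1 and Cxcl2, the CXCR3 ligand Cxcl10 and the most abundant ligand, Cxcl12, had log2 fold changes of -0.32 to 0.26. Others were larger than Ccl9 (0.73) or near it: Ccl2 (0.72), Ccl3 (0.96), Ccl4 (0.82), Cxcl14 (1.42) and Cxcl16 (0.71). So were the Ccl21b rows at 1.66 and 1.92 and Ccl21c at 1.92, copies among which the split of reads is uncertain. The values of Ccl3 and Ccl4 rest on few fragments. A difference between ligand kinds was not tested. The median over the 24 ligand rows was 0.72, and 19 of them were positive, beside 70.3% of all genes tested.

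No member passed an adjusted p under 0.05 in limma with Benjamini-Hochberg adjustment, as was the case for every gene tested (0%). At an unadjusted p under 0.05, 5 ligand rows and 3 receptors were higher and none was lower, whereas 13.2% of all genes tested were higher and 3.02% lower. The share was 20.8% of the ligand rows and 33.3% of the receptors. These 8 members had limma adjusted p values between 0.24 and 0.30. In 6 members (18.2%) every AlbCre liver lay above every control, close to the 18.7% of all genes, and in 1 (3.03%) every AlbCre liver lay below, beside 4.34%. The whole table leaned upwards in the AlbCre livers, with 1842 genes higher and 421 lower at that p. Median-ratio scaling of the libraries turned this to 880 higher and 1031 lower, and the members at that p under it were Ccl6, Ccl7, Ccl19, Cxcl9 and Ccr2, all higher. Leaving out AlbCre liver b took the ligand count from 5 to 1 and the receptor count from 3 to 1, and leaving out AlbCre liver c took the ligand count to 2. The share of all genes that were higher fell too, from 13.2% to 7.97% without AlbCre b and 9.28% without AlbCre c. Without control c the receptor count was 1, and 7.51% of all genes were higher. Ccr2 kept an unadjusted p under 0.05 in all 19 fits and Cxcl9 in all 18 in which it was tested.

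**Figure D1:**
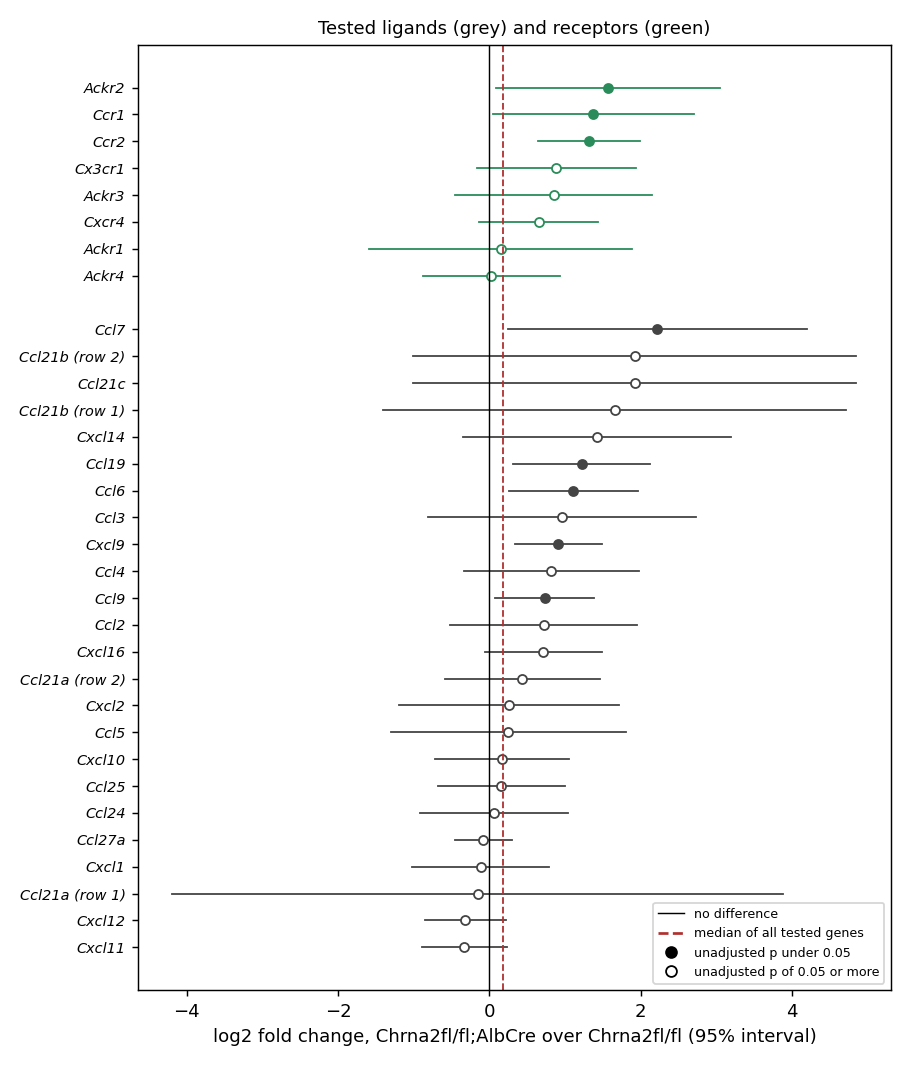
Log2 fold change (AlbCre over control, on log2(FPKM + 0.1)) with its 95% interval from limma for 32 of the 33 members tested, ligands in grey and receptors in green; the dashed line is the median of all genes, 0.19. The 5 filled ligands and 3 filled receptors lie to the right of 0, and the intervals of all open symbols include 0.

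CCR2 is the receptor through which inflammatory monocytes leave the bone marrow and enter injured tissue. Ccr2 was 2.39, 4.42 and 2.10 FPKM in the controls and 6.60, 8.12 and 6.76 FPKM in the AlbCre livers. Every AlbCre liver was above every control, and Ccr2 was the most abundant receptor of both genotypes. Its mean was 2.97 ± 1.26 FPKM (SD, n = 3) against 7.16 ± 0.84 FPKM (SD, n = 3), 2.41-fold, with a log2 fold change of 1.31 ± 0.29 (SE). The limma adjusted p was 0.24, and the exact two-sided permutation p was 0.1, the smallest that 3 against 3 livers allow.

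The ligands of CCR2 had low levels. Ccl7, a monocyte attractant, was 0.10, 1.34 and 0.11 FPKM in the controls and 3.33, 1.26 and 1.21 FPKM in the AlbCre livers. Control b was as high as AlbCre b and c, so that the groups overlapped, and its log2 fold change was 2.22 ± 0.84 (SE). Ccl7 has a single annotated transcript, and its values stood for 1, 12 and 1 fragments in the controls and 16, 6 and 6 fragments in the AlbCre livers. Ccl2, the main CCR2 ligand, was 0.67, 1.69 and 0.62 FPKM in the controls and 2.96, 1.03 and 1.18 FPKM in the AlbCre livers. As for Ccl7, control b was the highest control and AlbCre a the highest liver. The log2 fold change of Ccl2 was 0.72 with a 95% interval of -0.52 to 1.96. Ccl12, the third CCR2 ligand of the mouse, was above 0 in AlbCre c alone, at 0.40 FPKM.

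CCR1 binds CCL6 and CCL9 in the mouse, chemokines that myeloid cells make in quantity. Ccl6 was 15.2, 26.6 and 9.96 FPKM in the controls and 25.5, 40.1 and 40.2 FPKM in the AlbCre livers. AlbCre a lay just below control b, and the other AlbCre livers were above all controls. The means were 17.3 ± 8.53 FPKM and 35.2 ± 8.42 FPKM (SD, n = 3 each), with a log2 fold change of 1.11 ± 0.36 (SE). Ccl9 was 32.1, 33.1 and 16.9 FPKM in the controls and 36.7, 51.1 and 44.2 FPKM in the AlbCre livers. Its groups did not overlap, although AlbCre a exceeded control b by little against the spread, and the log2 fold change was 0.73 ± 0.28 (SE). The limma adjusted p was 0.27 for Ccl6 and 0.29 for Ccl9. Their receptor Ccr1 was 0.26, 0.52 and 0.11 FPKM in the controls and 0.93, 0.94 and 0.66 FPKM in the AlbCre livers. Every AlbCre liver was above every control, at 12, 23 and 5 fragments in the controls and 22, 22 and 16 fragments in the shallower AlbCre libraries. The log2 fold change of Ccr1 was 1.37 ± 0.57 (SE), with a limma adjusted p of 0.30.

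The ligands of CXCR3 differed from each other in pattern. Interferon gamma is the classical inducer of Cxcl9, which was 3.20, 3.53 and 2.41 FPKM in the controls and 4.27, 6.44 and 6.83 FPKM in the AlbCre livers. All AlbCre livers were above all controls, with a log2 fold change of 0.91 ± 0.25 (SE) and a limma adjusted p of 0.25. Cxcl10 was 3.51, 3.32 and 2.01 FPKM in the controls and 2.13, 2.91 and 5.39 FPKM in the AlbCre livers. Only AlbCre c was above the controls, and the log2 fold change of 0.17 had a 95% interval of -0.71 to 1.05 and turned its sign under median-ratio scaling (-0.01). Cxcl11, annotated as a polymorphic pseudogene, was 1.51, 1.59 and 1.59 FPKM in the controls and 1.19, 1.27 and 1.21 FPKM in the AlbCre livers. It was the only tested member with every AlbCre liver below every control, at a log2 fold change of -0.33 (95% interval -0.89 to 0.23). Cxcl10 and Cxcl11 overlap Art3 on the other strand, and the strand setting of the counting is not given in the sources used here. The receptor Cxcr3 stayed under the filter in every liver, at 0.11 to 0.24 FPKM in the controls and 0.15 to 0.29 FPKM in the AlbCre livers, which are 2 to 6 fragments.

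Among the neutrophil ligands, Cxcl1 was 34.7, 20.8 and 30.7 FPKM in the controls and 15.1, 43.8 and 26.4 FPKM in the AlbCre livers. The AlbCre livers held both the lowest and the highest value. The means were 28.7 ± 7.13 FPKM and 28.4 ± 14.5 FPKM (SD, n = 3 each), and the log2 fold change of -0.12 had a 95% interval of -1.02 to 0.79. Cxcl2 was 1.06, 0.29 and 0.38 FPKM in the controls and 0.31, 0.79 and 0.92 FPKM in the AlbCre livers. Control a was the highest liver and the groups overlapped, with a log2 fold change of 0.26 (95% interval -1.19 to 1.71). Cxcl3 and Cxcl5 lay under the filter, and Cxcl5 reached 0.92 FPKM in AlbCre a beside at most 0.16 FPKM elsewhere. Their receptor Cxcr2 was 0.14 to 0.29 FPKM in the controls and 0.23 to 0.51 FPKM in the AlbCre livers. The neutrophil marker list summed to 17.4 to 98.8 FPKM in the controls and 18.8 to 51.3 FPKM in the AlbCre livers.

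Ccl2, Cxcl2 and Cxcl10 were in the quantitative PCR panels of the study, and their primers are shown because they fix which transcripts such an assay can amplify. Each pair matched transcripts of its own gene and none of another gene in the GENCODE set for GRCm38, at chr11:82035571-82037453 (+) for Ccl2, chr5:90903871-90905938 (+) for Cxcl2 and chr5:92346638-92348889 (-) for Cxcl10. The Ccl2 pair matched both annotated transcripts with a product of 104 nt. The Cxcl2 pair matched 3 of 4 transcripts, with a product of 91 nt in 1 and 839 nt in 2, and the Cxcl10 pair matched all 4, with 157 nt in 3 and 695 nt in 1, a retained-intron transcript.
Ccl2 forward: tgaccccaagaaggaatggg
Ccl2 reverse: accttagggcagatgcagtt
Cxcl2 forward: cggtcaaaaagtttgccttg
Cxcl2 reverse: tccaggtcagttagccttgc
Cxcl10 forward: ccaagtgctgccgtcattttc
Cxcl10 reverse: ggctcgcagggatgatttcaa

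Promoters of 46 of the 62 symbols matched the RefSeq table for GRCm38.p6, each from 250 bases before to 50 bases after the transcription start. The 6 below were chosen with the test results known. They are neutrophil and CXCR3 ligands whose intervals included 0 (Cxcl1, Cxcl2, Cxcl10), and Cxcl9, Ccl6 and Ccr2, which were higher at an unadjusted p under 0.05. Capitals mark matches on either strand to GGGANNTTCC or GGGAANNNCC, which are forms of the NF-kB site that can overlap each other, and to GAAANNGAAA, the core of the interferon-stimulated response element. The windows are chr5:90890995-90891294 (+) for Cxcl1, chr5:90903649-90903948 (+) for Cxcl2, chr5:92348840-92349139 (-) for Cxcl10, chr5:92328030-92328329 (-) for Cxcl9, chr11:83593038-83593337 (-) for Ccl6 and chr9:124101933-124102232 (+) for Ccr2.
Cxcl1: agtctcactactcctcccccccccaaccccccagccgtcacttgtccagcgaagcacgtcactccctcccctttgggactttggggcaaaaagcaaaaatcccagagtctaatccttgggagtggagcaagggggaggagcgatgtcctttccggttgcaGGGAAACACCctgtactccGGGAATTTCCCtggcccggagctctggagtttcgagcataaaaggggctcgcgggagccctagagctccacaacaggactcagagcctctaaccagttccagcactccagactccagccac
Cxcl2: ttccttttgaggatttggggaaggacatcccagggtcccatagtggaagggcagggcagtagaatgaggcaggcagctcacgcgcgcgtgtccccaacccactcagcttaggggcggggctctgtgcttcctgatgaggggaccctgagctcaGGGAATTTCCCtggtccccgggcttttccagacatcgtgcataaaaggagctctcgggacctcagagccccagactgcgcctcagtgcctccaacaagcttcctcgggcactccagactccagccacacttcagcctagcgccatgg
Cxcl10: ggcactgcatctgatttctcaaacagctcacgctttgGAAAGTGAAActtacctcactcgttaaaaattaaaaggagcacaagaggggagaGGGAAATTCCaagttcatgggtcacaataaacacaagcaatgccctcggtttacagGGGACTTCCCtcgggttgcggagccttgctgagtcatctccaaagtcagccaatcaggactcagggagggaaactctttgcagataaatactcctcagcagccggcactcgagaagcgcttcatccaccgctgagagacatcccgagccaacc
Cxcl9: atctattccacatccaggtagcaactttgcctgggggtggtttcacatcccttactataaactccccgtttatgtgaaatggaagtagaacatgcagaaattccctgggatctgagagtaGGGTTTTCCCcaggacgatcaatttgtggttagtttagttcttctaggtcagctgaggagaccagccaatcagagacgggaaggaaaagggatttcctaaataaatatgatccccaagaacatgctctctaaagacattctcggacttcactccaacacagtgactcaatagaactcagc
Ccl6: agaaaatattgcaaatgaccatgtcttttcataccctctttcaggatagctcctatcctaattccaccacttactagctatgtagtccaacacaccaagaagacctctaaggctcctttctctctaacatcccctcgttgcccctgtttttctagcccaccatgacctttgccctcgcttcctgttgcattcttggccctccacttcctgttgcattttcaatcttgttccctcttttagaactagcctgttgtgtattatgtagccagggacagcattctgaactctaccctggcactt
Ccr2: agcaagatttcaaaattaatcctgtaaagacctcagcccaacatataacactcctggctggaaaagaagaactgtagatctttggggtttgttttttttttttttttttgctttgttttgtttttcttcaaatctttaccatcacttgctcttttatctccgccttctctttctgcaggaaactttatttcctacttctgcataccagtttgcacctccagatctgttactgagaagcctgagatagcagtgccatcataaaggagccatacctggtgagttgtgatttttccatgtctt

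GGGANNTTCC was present in 1.47% of all 32851 promoters and in 6 of the 46 member symbols with a promoter (Ccl1, Ccr3, Cxcl1, Cxcl2, Cxcl3 and Cxcl10). Of these, Cxcl1, Cxcl2 and Cxcl10 were expressed enough to be tested. The intervals of all 3 included 0, as did those of every tested ligand row but the 5 that were higher. GGGAANNNCC was present in 5.78% of all promoters and in 10 of the 46. Of these 10, 5 were tested: the same 3 ligands, and Cxcl9 and Ccl19, which were higher at an unadjusted p under 0.05. GAAANNGAAA was present in 3.44% of all promoters and in Cxcl10, Cxcl14 and Ccl19. The Ccl6 and Ccr2 windows held none of these letters. TTCNNNGAA, the gamma interferon-activated site, was in 8.3% of all promoters and in 3 of the 46 (Ccl17, Ccr6 and Cxcl14), and GAGGAA, a core of the PU.1 site, was in 28.3% and in 16 of the 46. A match describes the letters of the window. It was not tested as a binding site or against the fold changes.

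**Figure D2:**
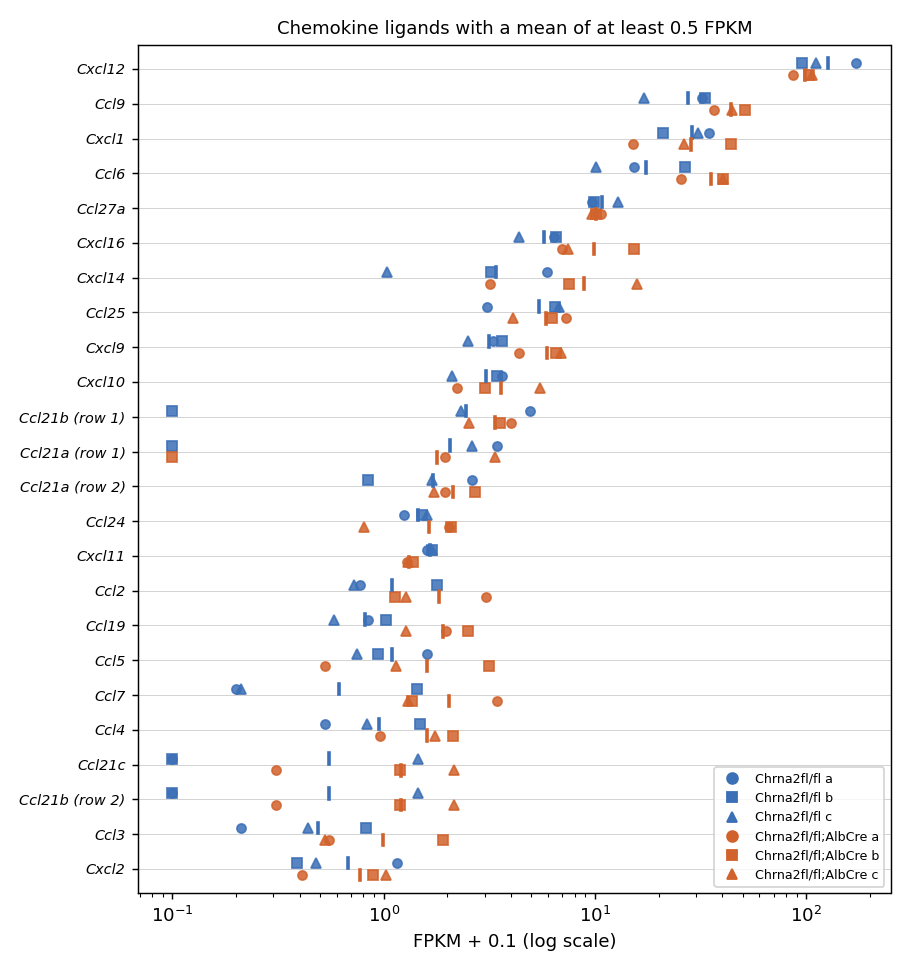
FPKM + 0.1 of the 24 tested ligand rows in each liver on a log axis, controls in blue and AlbCre livers in orange, with the genotype mean as a vertical bar and the liver letter as the symbol. Cxcl12 is the highest row, at 86.0 to 172 FPKM, and the groups stand apart for Ccl9, Cxcl16, Cxcl9, Ccl19 and, in the other direction, Cxcl11.

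CCL3, CCL4 and CCL5 are inflammatory chemokines made by macrophages and T cells, and their transcripts were low and highest in AlbCre b. Ccl3 was 0.11, 0.72 and 0.34 FPKM in the controls and 0.45, 1.81 and 0.43 FPKM in the AlbCre livers. Ccl4 was 0.43, 1.38 and 0.73 FPKM in the controls and 0.86, 2.02 and 1.65 FPKM in the AlbCre livers. The groups overlapped for both, with log2 fold changes of 0.96 (95% interval -0.82 to 2.73) and 0.82 (-0.34 to 1.97). Ccl3 stood for 1, 6 and 3 fragments in the controls and 2, 8 and 2 fragments in the shallower AlbCre libraries. For Ccl4 these were 3, 9 and 5 fragments against 3, 7 and 6 fragments. Ccl5 was 1.5, 0.84 and 0.65 FPKM in the controls and 0.43, 3.05 and 1.04 FPKM in the AlbCre livers, so that the lowest and the highest liver were both AlbCre. Its log2 fold change of 0.25 (95% interval -1.31 to 1.81) became -0.42 without AlbCre b.

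CXCL12 holds leukocytes and progenitors in place through CXCR4, and its transcript was the largest share of all ligand FPKM, 33.0% to 56.7% of the sum by liver. Cxcl12 was 172, 95.2 and 111 FPKM in the controls and 86.0, 103 and 106 FPKM in the AlbCre livers. Control a stood above the other livers and the groups overlapped, with a log2 fold change of -0.32 (95% interval -0.85 to 0.22). Cxcr4 was 1.22, 1.22 and 0.84 FPKM in the controls and 1.21, 2.46 and 1.78 FPKM in the AlbCre livers. AlbCre a was level with the controls, and the log2 fold change was 0.65 (95% interval -0.14 to 1.44). Ackr3, the scavenging receptor for CXCL12, was 0.22 to 0.87 FPKM in the controls and 0.69 to 1.44 FPKM in the AlbCre livers. The sum of the ligands other than Cxcl12 was 132, 125 and 103 FPKM in the controls and 135, 209 and 183 FPKM in the AlbCre livers, with AlbCre a little above control a. With Cxcl12 the sums overlapped, at 214 to 304 FPKM against 221 to 312 FPKM.

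CCR7 guides dendritic cells and naive T cells to lymphoid tissue along CCL19 and CCL21. Ccl19 was 0.74, 0.93 and 0.48 FPKM in the controls and 1.87, 2.40 and 1.18 FPKM in the AlbCre livers. Every AlbCre liver was above every control, with a log2 fold change of 1.22 ± 0.38 (SE) and a limma adjusted p of 0.26. A second Ccl19 row on an unplaced scaffold was listed at 0. Ccl21 was spread over 7 rows of near-identical copies, some on unplaced scaffolds, and the split among them is uncertain: a Ccl21c row and a Ccl21b row held the same values in all 6 livers. Summed, the 7 rows were 10.7, 0.74 and 9.05 FPKM in the controls and 8.03, 8.22 and 11.4 FPKM in the AlbCre livers. Control b alone was low, and the other 5 livers lay together. Ccr7 was 0.10 to 0.33 FPKM in the controls and 0.13 to 0.32 FPKM in the AlbCre livers.

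The remaining tested ligands were of several kinds. Cxcl16, a membrane-bound ligand of CXCR6, was 4.29 to 6.41 FPKM in the controls and 6.87, 15.2 and 7.38 FPKM in the AlbCre livers. The groups did not overlap, with AlbCre b far above the rest, and the log2 fold change was 0.71 (95% interval -0.06 to 1.49). Cxcl14 was 0.94 to 5.81 FPKM in the controls and 3.08 to 15.8 FPKM in the AlbCre livers, at 1.42 (-0.34 to 3.19) on the log2 scale. Ccl25, the CCR9 ligand, had a log2 fold change of 0.16 (95% interval -0.68 to 0.995) and Ccl24, a CCR3 ligand, of 0.06 (-0.92 to 1.04). Ccl27a, a CCR10 ligand, was 9.57, 9.81 and 12.8 FPKM in the controls and 10.6, 10.01 and 9.54 FPKM in the AlbCre livers. Its log2 fold change of -0.08 had the narrowest interval of the 24 ligand rows (95% interval -0.46 to 0.29), and the gene overlaps Il11ra1 on the other strand.

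**Figure D3:**
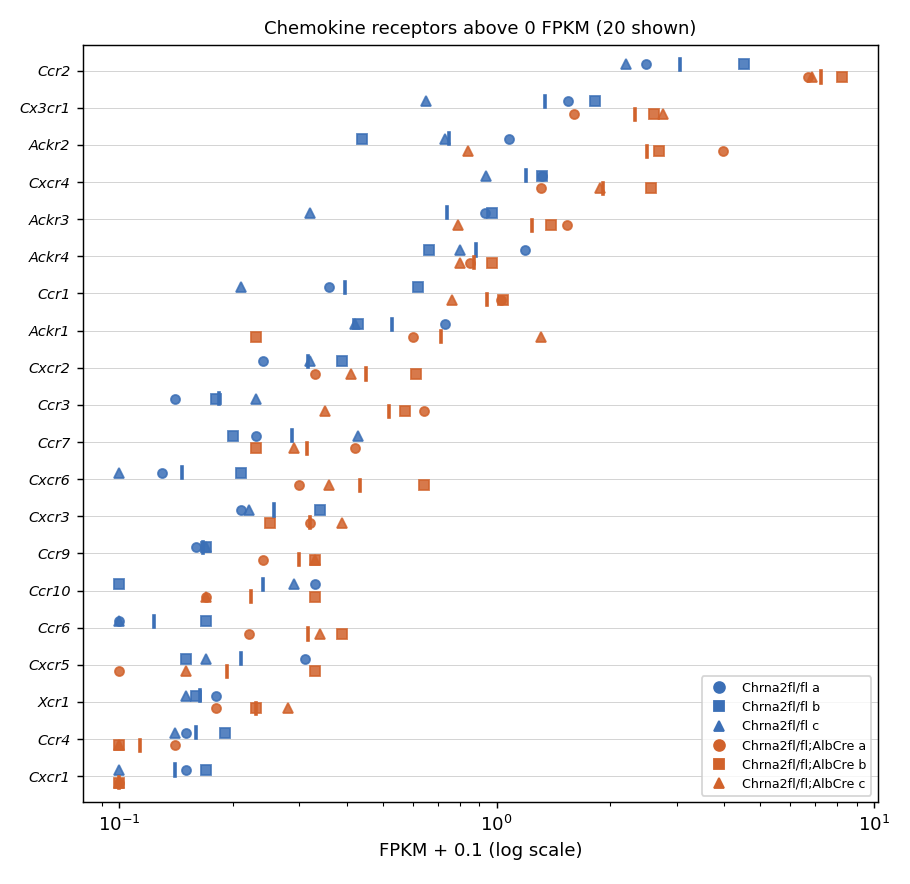
FPKM + 0.1 of 20 receptors above 0 in each liver on a log axis, controls in blue and AlbCre livers in orange, with the genotype mean as a vertical bar. Ccr2 is at the top with 2.10 to 4.42 FPKM in the controls and 6.60 to 8.12 FPKM in the AlbCre livers, and the receptors from Cxcr2 downwards lie at or under 0.54 FPKM.

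CX3CR1, the fractalkine receptor of patrolling monocytes and tissue macrophages, was the remaining tested leukocyte receptor. Cx3cr1 was 1.45, 1.72 and 0.55 FPKM in the controls and 1.5, 2.51 and 2.66 FPKM in the AlbCre livers. AlbCre a lay among the controls, and the log2 fold change was 0.88 (95% interval -0.17 to 1.93). The gene model spans several other genes. Its ligand Cx3cl1 was under the filter, at no more than 0.64 FPKM.

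Of the atypical receptors, ACKR2 takes up inflammatory CC chemokines and degrades them. Ackr2 was 0.98, 0.34 and 0.63 FPKM in the controls and 3.89, 2.59 and 0.74 FPKM in the AlbCre livers. AlbCre a and b were above all controls and AlbCre c was among them, with a log2 fold change of 1.57 ± 0.63 (SE) and a limma adjusted p of 0.29. Ackr4, which scavenges CCL19, CCL21 and CCL25, was 0.56 to 1.09 FPKM in the controls and 0.70 to 0.87 FPKM in the AlbCre livers. Its log2 fold change was 0.02 (95% interval -0.88 to 0.93). Ackr1, the Duffy receptor of venules and red cells, was 0.32 to 0.63 FPKM in the controls and 0.13 to 1.21 FPKM in the AlbCre livers, and AlbCre b was the lowest of all livers. Ackr1 overlaps Cadm3 on the same strand.

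Below the filter, 4 of 12 receptors and 2 of 10 ligands were higher in every AlbCre liver than in every control, and none was lower in every one. Among all genes under the filter and above 0, these shares were 3.94% and 2.44%. That set also holds genes at 0 in an AlbCre liver, which cannot be higher in every AlbCre liver. It was not matched to the members for level, so the shares are not a like comparison. The 4 receptors were Ccr3 of eosinophils, Ccr6 and Ccr9, which mark homing lymphocytes, and Cxcr6 of liver-resident lymphocytes. Ccr3 was 0.04, 0.08 and 0.13 FPKM in the controls and 0.54, 0.47 and 0.25 FPKM in the AlbCre livers, which are 2, 4 and 7 fragments against 15, 13 and 7 fragments. Cxcr6 was 0.03, 0.11 and 0.00 FPKM in the controls and 0.20, 0.54 and 0.26 FPKM in the AlbCre livers. Ccr6 reached 0.07 FPKM in 1 control and was 0.12 to 0.29 FPKM in the AlbCre livers, and Ccr9 was 0.06 to 0.07 FPKM against 0.14 to 0.23 FPKM. The ligands were Cxcl13, which attracts B cells, at 0.07 to 0.31 FPKM against 0.49 to 1.0 FPKM, and Ccl11, the eosinophil attractant eotaxin, at 0.07 FPKM in 1 control and 0.14 to 0.26 FPKM in the AlbCre livers. Cxcl13 stood for 5, 1 and 4 fragments in the controls and 8, 6 and 4 fragments in the AlbCre livers. Ccl11 stood for 0, 1 and 0 fragments against 1, 1 and 2 fragments. For Ccl11, 1 fragment read as 0.07 FPKM in control b and as 0.14 FPKM in AlbCre a. Its separation therefore rests on 1 or 2 fragments in libraries of unequal depth. All 6 had an unadjusted p under 0.05 in limma without the filter, in which 8.55% of genes were higher and 2.7% lower, and their limma adjusted p lay between 0.38 and 0.43.

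The others under the filter were Ccl12, Ccl22, Ccl28, Cx3cl1, Cxcl3, Cxcl5, Cxcl17 and Xcl1 among the ligands and Ccr4, Ccr7, Ccr10, Cxcr1, Cxcr2, Cxcr3, Cxcr5 and Xcr1 among the receptors. Their highest values were 0.92 FPKM for the ligands, in Cxcl5, and 0.51 FPKM for the receptors, in Cxcr2. Listed at 0 in each liver were Ccl1, Ccl8, Ccl17, Ccl20, Ccl26, Ccl27b, Cxcl15, Ccl21d, further copies of Ccl19, Ccl21b and Ccl27a, and the receptor Ccr8. For Ccr8, with a single transcript, a count of 0 allows up to 3 fragments per liver, which is 0.18 to 0.20 FPKM in the controls and 0.35 to 0.37 FPKM in the AlbCre livers, for counting error only.

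**Figure D4:**
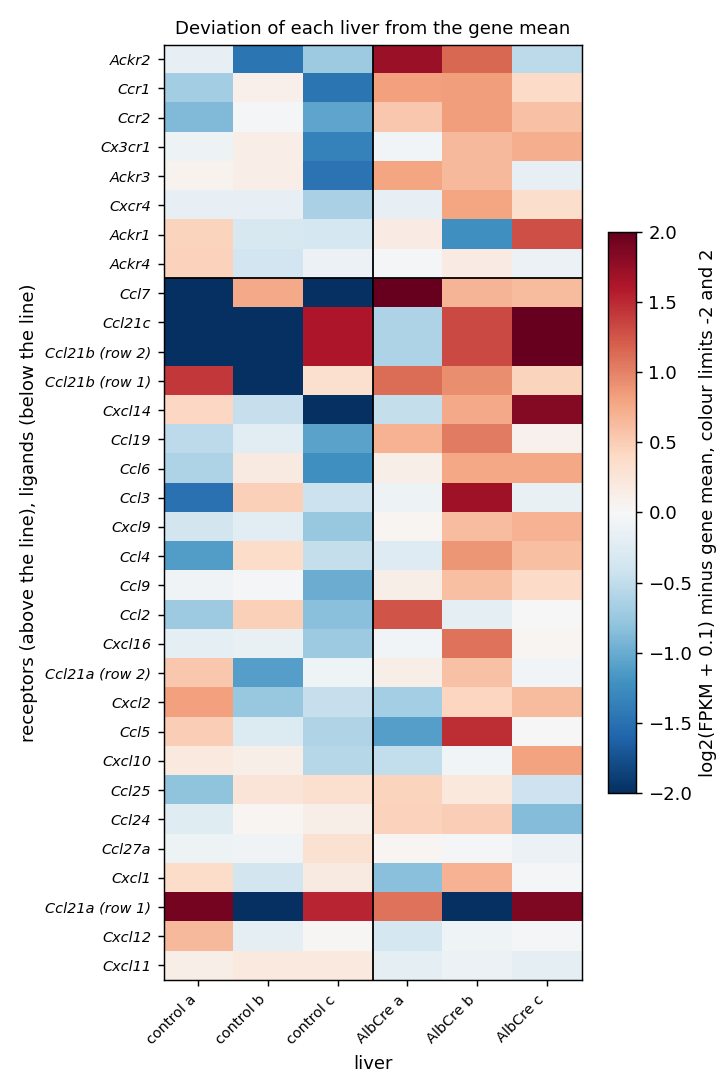
Log2(FPKM + 0.1) of each liver minus the mean of the 6 livers for 32 of the 33 tested members, receptors above and ligands below the horizontal line; colours saturate at -2 and 2. AlbCre b is the highest liver for the most members and control c the lowest for the most, and the Ccl21 copies differ from each other within a liver.

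No single liver was the highest for all members. AlbCre b held the highest value of 13 of the 33 tested members, Ccr2, Cxcr4, Ccl3, Ccl4, Ccl5 and Cxcl16 among them, AlbCre c of 8 and AlbCre a of 5, Ccl2 and Ccl7 included. Control c held the lowest value of 14 members. Over all genes tested, AlbCre b was the highest liver in 20.2% and control c the lowest in 37.5%.

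Genes around the chemokine system were described by lists, whose counts stand beside the 70.3% of all genes tested with a positive log2 fold change and, for an unadjusted p under 0.05, the 13.2% that were higher and the 3.02% that were lower. Of 7 relatives that the name rule leaves out, 4 (57.1%) were higher and 1 (14.3%) was lower at that p. Pf4, the platelet chemokine CXCL4, was 3.70, 8.03 and 1.84 FPKM in the controls and 10.7, 14.3 and 8.45 FPKM in the AlbCre livers. Rarres2, which encodes the chemoattractant chemerin and is made by hepatocytes, was 688, 488 and 721 FPKM in the controls and 446, 414 and 379 FPKM in the AlbCre livers. Both groups stood apart in both genes, with log2 fold changes of 1.49 ± 0.49 (SE) for Pf4 and -0.60 ± 0.18 (SE) for Rarres2 and limma adjusted p values of 0.27 and 0.25. The chemerin receptor gene Cmklr1 had a log2 fold change of 1.03 ± 0.44 (SE).

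Of 24 genes of receptor signaling, 22 were tested, all 22 had a positive log2 fold change and 8 (36.4%, beside 13.2% of all genes) were higher at that p, with a median of 0.56. Gnb1, a G protein beta subunit, was 28.2 to 37.7 FPKM in the controls and 48.7 to 54.0 FPKM in the AlbCre livers, and Rgs1, which dampens chemokine signaling, was 0.54 to 2.35 FPKM against 3.14 to 3.99 FPKM. In leukocyte adhesion, 6 of 15 tested genes (40.0%) were higher and 1 (6.67%) was lower. Itgam, the integrin of myeloid cells, was 0.64 to 1.98 FPKM in the controls and 2.64 to 4.61 FPKM in the AlbCre livers, and Selp, an endothelial selectin, was 1.34 to 3.02 FPKM against 0.83 to 1.22 FPKM. Of 15 tested genes of NF-kB and its cytokine inducers, 1 (6.67%) was higher (Il1a, 1.29 to 1.47 FPKM against 2.19 to 2.81 FPKM), none was lower, and the median of 0.20 was close to that of all genes. Tnf, Il6 and Ifng stayed under the filter.

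Markers of the cells that make or carry these chemokines were measured beside them. Over all genes tested, 13.2% were higher at an unadjusted p under 0.05. Monocyte-derived macrophage markers were higher at that p in 4 of 8 genes and summed to 443 to 519 FPKM in the controls and 477 to 670 FPKM in the AlbCre livers. Most of each sum was a single gene, Fn1, so the sum says little of the other genes. Fn1 was 394, 372 and 376 FPKM in the controls and 349, 433 and 461 FPKM in the AlbCre livers. The groups overlapped, and its log2 fold change was 0.11 ± 0.14 (SE). Ly6c2, which marks inflammatory monocytes, was 0.46, 2.39 and 1.89 FPKM in the controls and 4.22, 3.87 and 4.46 FPKM in the AlbCre livers. Kupffer cell markers were higher in 2 of 7 genes, at sums of 119 to 200.4 FPKM against 181 to 373 FPKM, with AlbCre b the highest, and pan-macrophage markers in 2 of 6, at 104 to 176 FPKM against 154 to 294 FPKM. Sinusoidal endothelial markers were higher in 3 of 7 genes and stellate cell markers in 1 of 7 (14.3%, near the share of all genes), and none of the tested hepatocyte (8), neutrophil (5), dendritic cell (4), cholangiocyte (4) and B cell (1) markers reached that p. T cell and NK cell markers summed to 2.04 to 5.18 FPKM against 2.49 to 3.43 FPKM. Of the 10 genes of that list only Cd4 and Gzma were tested. Cd4 was lower at that p in the AlbCre livers, beside 3.02% of all genes. No gene of the marker lists was at 0 in all livers. The part of these markers and of depth in the differences of Ccr2, Ccr1, Ccl6 and Ccl9 was not tested.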

How the data were processed

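Poly(A) RNA of 6 livers was sequenced as paired reads of 151 bp. Per the study's methods and the submitters' processing notes, the authors trimmed reads with cutadapt 2.3, aligned them to GRCm38 with STAR 2.7.8a and estimated gene levels with RSEM 1.3.3, and they deposited FPKM values for 6 livers in one table. Counts were not used here. Depth was estimated from the steps of low FPKM values of genes with 1 transcript, of which 86.6% to 93.3% were whole within 0.15 fragments. FPKM from RSEM divides reads between near-identical copies.

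The test took every gene whose mean over the livers reached 0.5 FPKM, and ran on log2(FPKM + 0.1) with limma 3.58.1 in R 4.3.3 (trended variance, Benjamini-Hochberg over 13943 genes, threshold 0.05), since the study's own tests take 1 gene at a time. Fold changes on this scale understate low genes. The fit was tested on simulated data. Single values were tested by an exact two-sided permutation test, which cannot go below 0.1 with 3 against 3. The replicates are separate mice, and the floxed controls were littermates co-housed with the Cre mice per the study's methods; the sources used here do not say which mice shared a litter or cage.

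Members shown in all livers were those in the study's PCR panels, the 5 most abundant ligands and receptors, the 5 of each with the smallest p, and the ligands and receptors of the CCR2, CXCR2 and CXCR3 systems with Ccl3, Ccl4, Ccl5, Ccr1, Cxcr4 and Cx3cr1. The values of 1 member are not reported here, and it is left out of the plots. Members and gene lists were chosen with earlier results of these data known. Coordinates are from GENCODE for GRCm38. The alternatives were other pseudocounts, filters, scalings and variance models, a replicate block and leaving out each liver.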

Additional observations from a re-analysis of the deposited data

How the results depend on the processing

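No member passed an adjusted p under 0.05 in any of the 18 alternatives, and both medians stayed positive in each. With a pseudocount of 1 the median log2 fold change was 0.41 for ligands and 0.41 for receptors, and with quantile normalization it was 0.45 and 0.49. Without the filter 7 of 34 ligands and 7 of 21 receptors were higher at an unadjusted p under 0.05 in limma, beside 8.55% of all genes. Of these, 2 ligands and 4 receptors lay under the filter. With a mean of at least 5 FPKM, where only 8 ligands and 1 receptor were tested, 2 ligands and 1 receptor were higher and the medians were 0.43 and 1.31. In that setting 14.9% of all genes were higher. Median-ratio scaling left 1 receptor higher, and quantile normalization left 3 ligands and 1 receptor higher and 1 ligand lower. Of all genes, 6.31% were higher under median-ratio scaling, and 6.85% were higher and 6.58% lower under quantile normalization. Without the trend 1 ligand was lower, beside 2.49% of all genes. With array weights 8 ligands were higher and 1 was lower, and 21.5% of all genes were higher and 4.70% lower. The cause was not tested. Leaving out 1 liver at a time gave 1 to 6 ligands and 1 to 3 receptors higher, no ligand and no receptor lower, and medians of 0.47 to 0.86 for ligands and 0.43 to 1.13 for receptors. The share of all genes higher ranged from 7.51% without control c to 20.7% without control b.

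Of 21 named members, 16 kept their sign in every setting. Cxcl10 reversed under median-ratio scaling (-0.012), quantile normalization (-0.11) and array weights (-0.064), and ranged from -0.19 to 0.46 with 1 liver left out. Ccl5 reversed under quantile normalization (-0.066) and ranged from -0.42 to 0.86 with 1 liver left out, and Cxcl2 reversed with array weights (-0.29) and ranged from -0.053 to 0.73. Ccl27a reversed with array weights (0.0055) and ranged from -0.16 to 0.049, and Cxcl1 ranged from -0.49 to 0.28.

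Livers with the same letter had correlations of -0.02, 0.06 and 0.02 between their deviations from the genotype mean. With 3 livers per mean, these values cannot decide whether mice of the same letter shared a litter, cage or preparation. With the replicate block 6 ligands and 3 receptors were higher, beside 12.2% of all genes, and the median log2 fold changes were 0.72 and 0.85. Summing the 7 Ccl21 rows, an alternative chosen after seeing the data, left the same 8 members at that p. Depth limits the members under the filter, since the median control library was 1.92 times as deep as the median AlbCre library.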
